A study of Sus scrofa with 48 samples.

Results

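The 10 genes FABP4, ADIPOQ, LEP, PLIN1, CIDEC, PPARG, CEBPA, LIPE, PNPLA2 and RETN are used as markers of adipocytes, and their expression was examined in longissimus muscle of pigs. Probes were taken as theirs when the gene name in the scanner files, or a bracketed symbol in the description, was that of the gene. The 10 genes were among 12225 gene symbols on the microarray and had 43 of its 60305 distinct probes, 1 of them found by its description alone. A probe was tested when its signal exceeded background clearly on 12 or more of the 48 arrays. This held for 42125 probes in all and for 39 of the 43, which stood for 9 of the 10 genes. The probes per gene were 9 for ADIPOQ, 8 for FABP4, 4 each for PPARG and LIPE, 3 each for CEBPA, CIDEC, LEP and PNPLA2 and 2 for PLIN1.

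The pigs came from 2 lines bred in opposite directions for residual feed intake (RFI), the feed eaten above or below what maintenance and growth require, so that low RFI pigs are the more efficient line. Within each line, pigs had free access to feed that was either high in both fat and fiber (HF diet) or low in both (LF diet), which made 4 groups of 12 pigs: low RFI HF, high RFI HF, low RFI LF and high RFI LF. Total RNA of each muscle was labelled with Cy3 and hybridised alone on 1 array. The age of the pigs was not given in the sources used here, and the lines differ by selection as a whole, not by 1 allele.

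Adipocytes lie between the muscle fibres and make up the marbling of meat. Their differentiation is driven by the transcription factors PPARG and CEBPA, which switch on genes of fatty acid handling (FABP4), of the lipid droplet surface (PLIN1, CIDEC) and of secreted hormones (ADIPOQ, LEP, RETN). Stored fat is released by lipases, among which PNPLA2 cleaves triglycerides and LIPE, hormone-sensitive lipase, mainly diglycerides. Muscle fibres also express PNPLA2 and LIPE, and FABP4 is also known from capillary endothelium and macrophages. In a sample of whole muscle, fewer adipocytes and less RNA per adipocyte cannot be told apart.

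The 60-base oligonucleotides were read from the scanner files, and a selection is shown here. It holds pairs that share bases, some probes with a polyadenylation signal and a LIPE probe that varied apart from the others. Whether the sequences account for agreement between probes was not tested. Those that hold a polyadenylation signal are given as a window of 30 bases. The first pair are FABP4 probes that differ by 1 inserted base, in capitals at position 21 of O15016, besides their shift by 1 base.
FABP4 O15016: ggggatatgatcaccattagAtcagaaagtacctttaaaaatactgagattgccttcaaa
FABP4 A_72_P564767: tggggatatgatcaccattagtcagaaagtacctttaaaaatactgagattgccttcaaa
The next 3 lines are windows of the brightest FABP4 probe and of the LIPE probes that share a run of 58 bases, and the last of this set is the LIPE probe that varied apart from them. The capitals mark AATAAA, the polyadenylation signal, searched on the printed strand. It was held by 6 of the 39 tested marker probes, or 15.4%, and by 11.7% of all tested probes.
FABP4 A_72_P576219: tgttcaatatgcttgttggttaAATAAAac
LIPE A_72_P223552: ttgtttgttgtaAATAAAgatatttaatta
LIPE O11623: ttgtttgttgtaAATAAAgatatttaatta
LIPE A_72_P551986: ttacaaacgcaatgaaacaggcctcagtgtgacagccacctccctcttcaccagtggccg
The LEP probes A_72_P442233 and O15019 are the same oligonucleotide printed under 2 names, and are shown in capitals throughout since all 60 bases are shared.
LEP A_72_P442233: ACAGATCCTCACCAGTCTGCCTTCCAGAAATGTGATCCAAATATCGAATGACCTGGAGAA
LEP O15019: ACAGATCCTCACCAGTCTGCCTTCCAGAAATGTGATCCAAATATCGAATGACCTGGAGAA
In the CEBPA pair, capitals mark the 13 bases that both probes hold.
CEBPA O15014: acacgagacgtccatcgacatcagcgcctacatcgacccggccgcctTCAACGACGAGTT
CEBPA A_72_P399728: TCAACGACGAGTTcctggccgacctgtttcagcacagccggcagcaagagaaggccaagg

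A level is the log2 of the processed signal minus the mean of the array over the tested probes, so that 0 is the mean probe of an array. Levels of different probes were not set against each other. Each gene is described at its lead probe, the tested probe with the highest mean level. The median processed signal ranged from 52.8 to 108 over the 48 arrays, on which 59.2% to 74.2% of probes exceeded background clearly. Each of the 6 slides held 2 arrays of every group. In the high RFI HF group, replicates 6 and 10 stood apart, with a mean correlation of 0.977 and 0.975, in that order, with the other arrays against 0.980 to 0.987 for the remaining 46, and results that rest on them are also given without them. A probe was called at an adjusted p under 0.05 in limma with Benjamini-Hochberg adjustment over all 42125 probes.

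ADIPOQ, PLIN1 and CIDEC varied widely from pig to pig, and none of them passed the test between the lines or the diets. ADIPOQ encodes adiponectin, a hormone made by adipocytes. At its lead probe A_72_P752533, the lowest, median and highest levels were -0.96, 1.23 and 2.23 in low RFI HF pigs and 0.60, 1.65 and 3.34 in high RFI HF pigs. They were -0.08, 1.78 and 2.95 in low RFI LF pigs and -0.07, 1.55 and 2.84 in high RFI LF pigs. The 4 groups overlapped over most of their range, and the lowest and highest pigs differed 19.8-fold. The SD within groups was 0.94, above that of 98.0% of the tested probes, whose median SD was 0.26. The high RFI line stood 0.20 above the low RFI line (SE 0.27, 95% interval -0.33 to 0.74, limma adjusted p = 0.64), and all 9 ADIPOQ probes gave positive differences, from 0.15 to 0.33.

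PLIN1, or perilipin 1, coats the lipid droplet and guards it against lipases. Its lead probe O15023 ran from -2.11 (median -0.48) to 0.53 in low RFI HF pigs, from -1.74 (median -0.31) to 1.11 in high RFI HF pigs, from -2.11 (median -0.17) to 1.02 in low RFI LF pigs and from -1.69 (median -0.60) to 0.74 in high RFI LF pigs. The groups overlapped nearly entirely, the spread over pigs was 9.31-fold, and the line difference was 0.12 (SE 0.26, limma adjusted p = 0.79). CIDEC promotes the fusion and growth of lipid droplets. Its lead probe A_72_P015096 ran from -0.23 (median 0.90) to 2.05 in low RFI HF pigs, from 0.40 (median 1.02) to 2.71 in high RFI HF pigs, from -0.11 (median 1.62) to 2.43 in low RFI LF pigs and from -0.30 (median 1.08) to 2.47 in high RFI LF pigs. Again no group stood clear of the others, and the line difference was 0.09 (SE 0.23, limma adjusted p = 0.84). High RFI HF replicate 10, one of the arrays that stood apart, had the highest level of all 48 pigs for ADIPOQ, PLIN1 and CIDEC, whereas low RFI HF replicate 7 was lowest for ADIPOQ and PLIN1 and next to lowest for CIDEC. Replicate 6, the other array that stood apart, was the lowest of the high RFI HF group for all 3 genes.

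**Figure D1:**
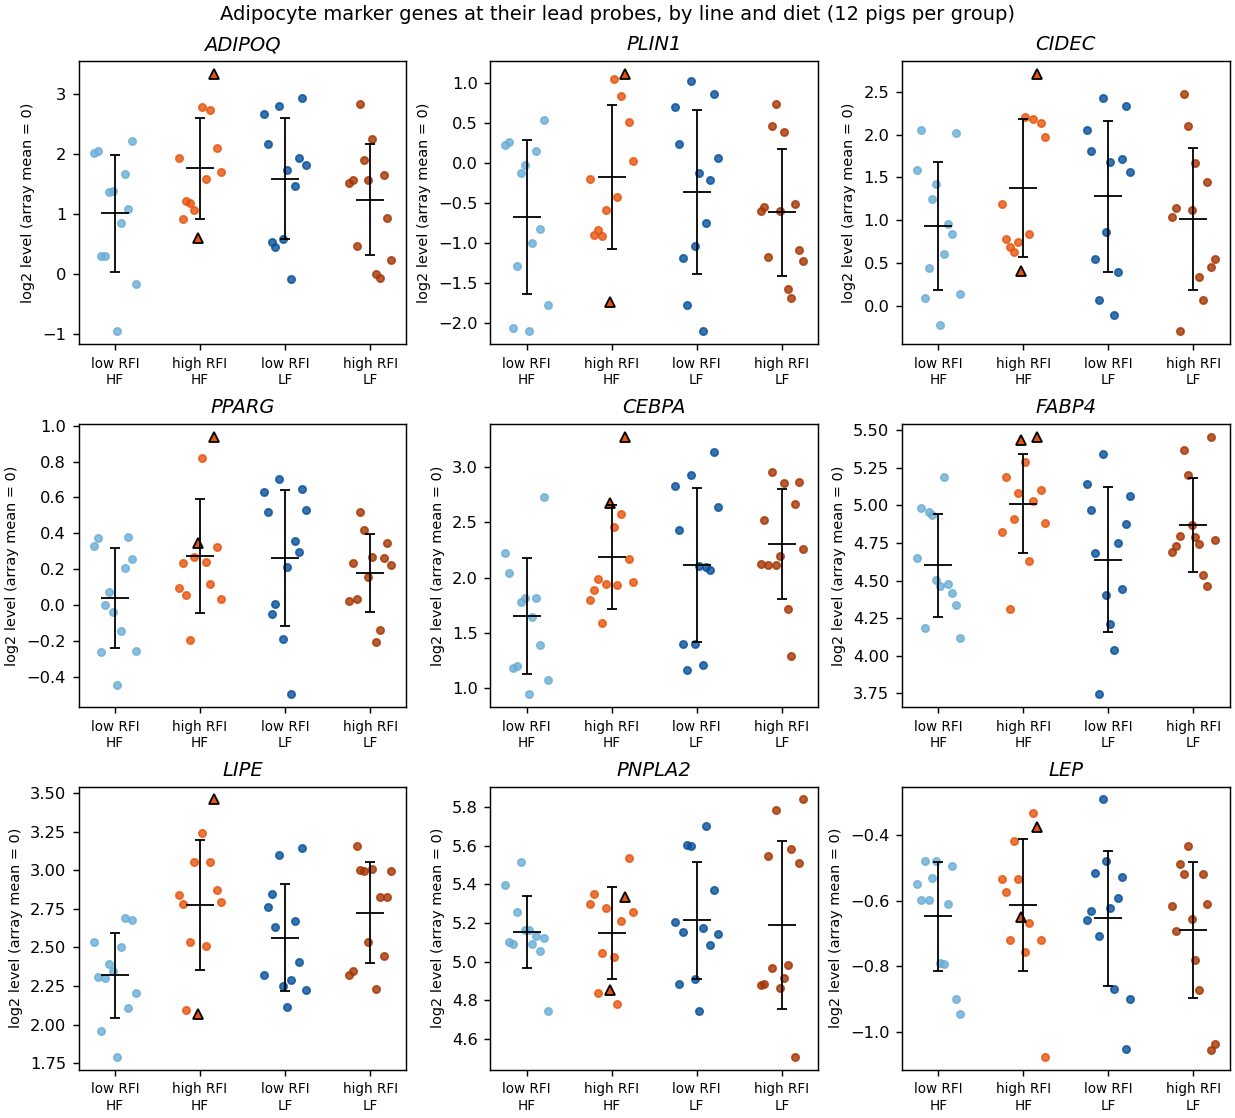
Levels of the 9 measured marker genes at their lead probes (log2 of the processed signal, array mean at 0) in the 4 groups of line and diet. Each point is 1 pig, horizontal ticks and bars give the mean ± SD of 12 pigs, and black-edged triangles are high RFI HF replicates 6 and 10. ADIPOQ spans -0.96 to 3.34 with all groups overlapping, whereas FABP4 and LIPE sit higher in the high RFI line.

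Neither adipogenic transcription factor was called between the lines. PPARG is the nuclear receptor that directs adipocyte differentiation. Its lead probe A_72_P441339 ranged over all pigs from -0.49 to 0.94, with group medians of 0.04 in low RFI HF, 0.24 in high RFI HF, 0.33 in low RFI LF and 0.23 in high RFI LF pigs, and the line difference was 0.07 (SE 0.09, limma adjusted p = 0.59). CEBPA, which works with PPARG, was read at A_72_P412888, the probe found by its description. Its levels ran from 0.95 (median 1.71) to 2.73 in low RFI HF pigs, from 1.59 (median 1.97) to 3.27 in high RFI HF pigs, from 1.16 (median 2.10) to 3.13 in low RFI LF pigs and from 1.29 (median 2.23) to 2.95 in high RFI LF pigs. Low RFI HF pigs were the lowest group, and 20 of the 24 high RFI pigs lay above the median of the low RFI line. The line difference of 0.36 (SE 0.16, 95% interval 0.05 to 0.68) had an unadjusted p of 0.025 in limma and an adjusted p of 0.10, and was not called. Without high RFI HF replicates 6 and 10 it was 0.28 (unadjusted p = 0.073 in limma). The other CEBPA probes, O15014 and A_72_P399728 shown above, gave -0.06 and -0.01, and correlated with the lead probe at 0.24 and 0.17 after removal of group means, so that the CEBPA values rest on 1 probe.

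FABP4, the fatty acid binding protein of adipocytes, was higher in the high RFI line at all 8 of its probes. Across all tested probes, 16.4% were called between the lines, 6.57% with the high RFI line above and 9.85% with it below. At the lead probe A_72_P576219, levels ran from 4.12 (median 4.49) to 5.19 in low RFI HF pigs and from 4.31 (median 5.06) to 5.46 in high RFI HF pigs. They ran from 3.75 (median 4.72) to 5.34 in low RFI LF pigs and from 4.46 (median 4.78) to 5.46 in high RFI LF pigs. The lines overlapped, although 21 of the 24 high RFI pigs lay above the median of the low RFI line and 8 of the 24 low RFI pigs above that of the high RFI line. High RFI pigs averaged 4.94 ± 0.32 (SD, n = 24) against 4.62 ± 0.41 (SD, n = 24) for low RFI pigs, which left 0.32 between them (SE 0.11, 95% interval 0.11 to 0.53, limma adjusted p = 0.031) or 1.25-fold. The other 7 probes differed by 0.30 to 0.61, with limma adjusted p between 0.0097 and 0.045. The difference of 0.61 belonged to A_72_P496561, a dim probe that was well above background in 7 and 6 of 12 low RFI pigs on the HF and LF diets against 12 and 11 of 12 high RFI pigs. The pair with 1 inserted base, O15016 and A_72_P564767, gave 0.30 and 0.31. The 8 probes are readings of the same 48 RNA samples and correlated with the lead probe at 0.84 to 0.99, so that their number adds nothing to the number of pigs.

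Of the 39 marker probes, 10 were called, all higher in the high RFI line, and the 10 comprised the 8 FABP4 probes and 2 LIPE probes, 2 genes in all. The median line difference was 0.19 over the 39 marker probes and -0.03 over all tested probes. Probes of 1 gene are not independent, and 9 of the 39 were of ADIPOQ and 8 of FABP4. The lead probes gave 0.36 for CEBPA, 0.32 for FABP4, 0.31 for LIPE, 0.20 for ADIPOQ and 0.12 for PLIN1. They gave 0.09 for CIDEC, 0.07 for PPARG, -0.0010 for LEP and -0.01 for PNPLA2. FABP4 lay near the threshold. Without high RFI HF replicates 6 and 10, whose FABP4 levels of 5.43 and 5.46 were among the highest of all pigs, the difference at the lead probe was 0.28 (limma adjusted p = 0.073). Of the 8 FABP4 probes, 1 was then called, the dim probe A_72_P496561, and the brighter ones were not. When each of the 48 arrays was left out in turn, the lead probe was called each time (limma adjusted p 0.015 to 0.049), and 4 to 8 of the 8 probes were called. The count was 4 or 5 without any 1 of 14 arrays: replicates 6 and 10 of high RFI HF, 4, 5 and 11 of high RFI LF, 3, 10, 11 and 12 of low RFI HF, and 4, 6, 7, 8 and 10 of low RFI LF. When all 60305 probes were tested without a filter, the difference at the lead probe was 0.33 (limma adjusted p = 0.057) and 1 FABP4 probe was called, again A_72_P496561. Within slides the high RFI line was higher on 5 of 6, by 0.35 to 0.46, and differed by -0.08 on the remaining slide. It was 0.24 and 0.40 within the scan days.

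**Figure D2:**
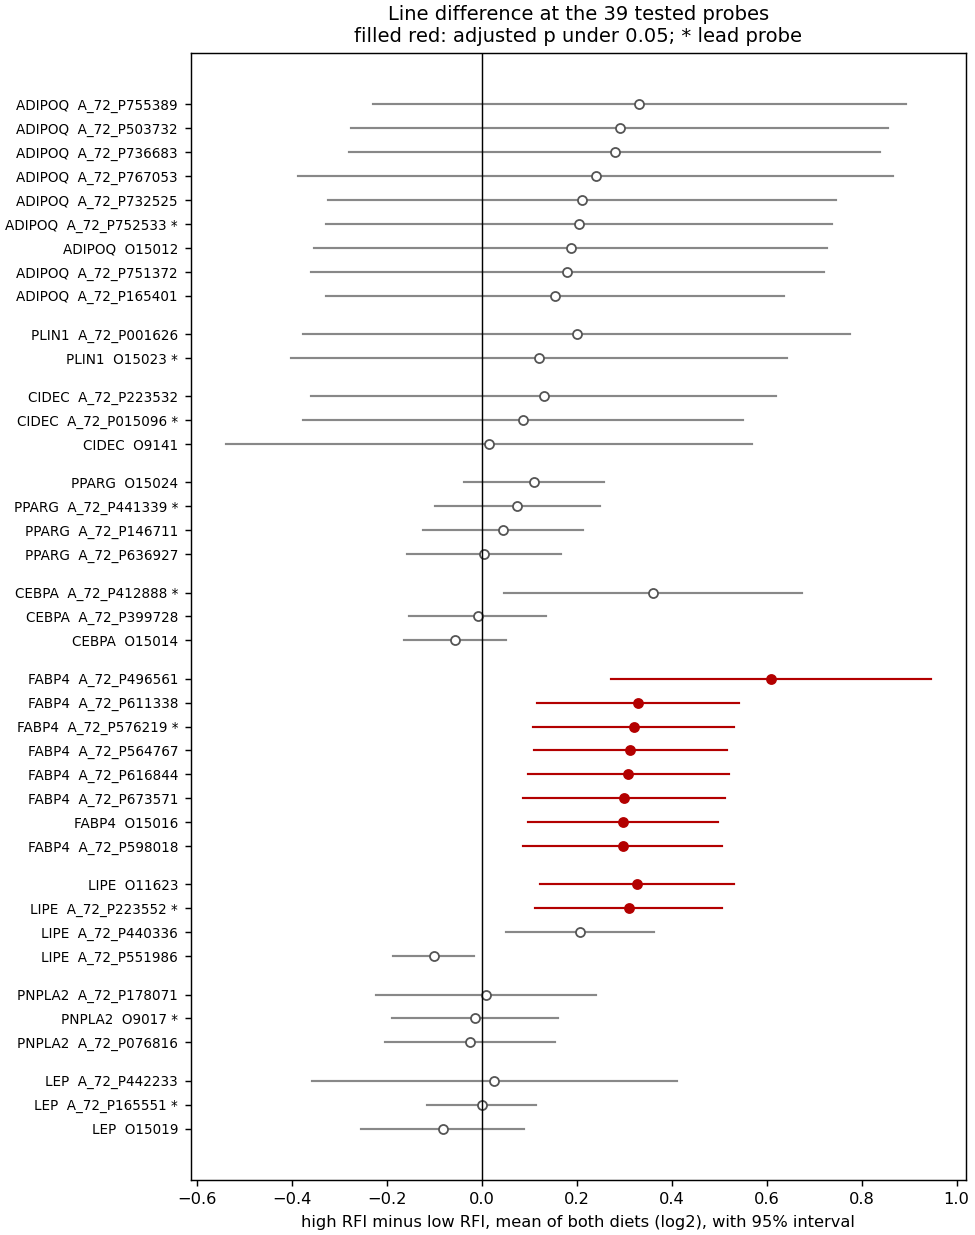
Difference between the lines (high RFI minus low RFI, mean of both diets, log2) at each of the 39 tested probes, grouped by gene. Circles are estimates and horizontal lines 95% intervals from limma, filled red where the adjusted p was under 0.05, with an asterisk at the lead probe of each gene. The 8 FABP4 probes and 2 LIPE probes are filled, the ADIPOQ intervals are wide, and LIPE A_72_P551986 lies on the other side of 0.

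Markers of other cell types were read against the 16.4% of all probes called between the lines. Of 19 tested probes of macrophage markers, 11 were called, all higher in the high RFI line, and the mean level over the 7 macrophage genes tested of 8 listed ran from -2.05 to -0.42 in low RFI HF, from -1.43 to 1.39 in high RFI HF, from -1.59 to -0.26 in low RFI LF and from -1.20 to 0.43 in high RFI LF pigs. ITGAM, the remaining macrophage gene, had no probe of that name. Of 38 probes of connective tissue genes, 8 were called, all higher in the high RFI line, against 6.57% of all probes in that direction. They belonged to COL1A1 (lead probe 0.37, limma adjusted p = 0.015), COL1A2 and POSTN. The other genes of that list had no called probe, and DCN (-0.06) and LUM (-0.02) were the ones below 0 at their lead probes. Of 19 endothelial probes, 2 were called, both higher in the high RFI line, against 6.57% of all probes in that direction. Both were probes of TEK. At the lead probes the endothelial differences ran from -0.15 for CDH5 to 0.24 for TEK. Over the 7 endothelial genes tested of 8 listed, the mean level ran from 1.40 to 2.24, 1.37 to 2.19, 1.68 to 2.10 and 1.48 to 2.35 in the groups in the same order. Of 77 myofibre probes, 17 were called, all lower in the high RFI line, against 9.85% of all probes in that direction. They were 6 probes of CKM, 5 of MYH4, 3 of TNNT3, 2 of MYH2 and 1 of TTN. At the lead probes, MYH2 and TTN were called, and MB (0.18) was the one above 0. Calls numbered 2 of 20 for smooth muscle and pericytes, 0 of 7 for lymphocytes, where limma also gave 0 at an unadjusted p under 0.05, and 1 of 3 for erythroid cells. The part of these cell types in the FABP4 and LIPE differences was not tested. With the ADIPOQ level as a covariate, 6 of 8 FABP4 probes and the same number of LIPE probes, 2, were called.

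Of the lipases, LIPE was called between the lines and PNPLA2 was not. LIPE was higher in the high RFI line at its lead probe A_72_P223552, where levels ran from 1.79 (median 2.33) to 2.69 in low RFI HF pigs, from 2.07 (median 2.81) to 3.46 in high RFI HF pigs, from 2.11 (median 2.52) to 3.14 in low RFI LF pigs and from 2.23 (median 2.83) to 3.16 in high RFI LF pigs. The lines overlapped, with 19 of 24 high RFI pigs above the median of the low RFI line and 3 of 24 low RFI pigs above that of the high RFI line. The line difference was 0.31 (SE 0.10, 95% interval 0.11 to 0.51, limma adjusted p = 0.025), or 1.24-fold, and was positive on 6 of 6 slides, from 0.09 to 0.57. It was 0.16 and 0.45 within the scan days. It was 0.31 without replicates 6 and 10 (limma adjusted p = 0.020), and it was called when each array was left out in turn (limma adjusted p 0.011 to 0.040).

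The 4 LIPE probes did not agree. O11623, which shares 58 bases with the lead probe, gave 0.33 (limma adjusted p = 0.022), and A_72_P440336 gave 0.21 (limma adjusted p = 0.059). A_72_P551986 gave -0.10 (limma adjusted p = 0.087) and correlated with the lead probe at 0.33, against 0.98 and 0.92 for the others. With slide as a block, all 4 probes were called in limma, A_72_P440336 at an adjusted p of 0.049 and A_72_P551986, lower in the high RFI line, at 0.030. When the 4 probes were averaged, LIPE was not called, and the mean of the 3 other probes differed by 0.14 (limma adjusted p = 0.13). A further probe with no symbol in the files shares at least 20 bases with the lead probe and correlated with it at 0.98, but was not counted since it did not meet the rule. PNPLA2, or adipose triglyceride lipase, had no line difference beyond its spread, with means at O9017 of 5.17 ± 0.34 (SD, n = 24) for the high RFI line against 5.18 ± 0.25 (SD, n = 24) for the low RFI line. The difference, -0.01, had a 95% interval of -0.19 to 0.16 (limma adjusted p = 0.93), and the other PNPLA2 probes gave -0.02 and 0.01. PNPLA2 ran from 4.51 to 5.84 in high RFI LF pigs, the widest group (SD 0.44), and from 4.75 to 5.52 in low RFI HF pigs, the narrowest (SD 0.19).

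Among the hormones, LEP was read by 1 probe well above background throughout and 2 dim ones, and RETN had no tested probe. LEP encodes leptin, which signals fat stores to the brain. Its lead probe A_72_P165551 was well above background on all 48 arrays and ran from -1.08 to -0.29 over all pigs, with group medians between -0.64 and -0.60, and the line difference was -0.0010 (SE 0.06, 95% interval -0.12 to 0.11). The identical oligonucleotides A_72_P442233 and O15019 were well above background on 18 and 34 arrays and correlated with each other at 0.23 after removal of group means, and with the lead probe at 0.57 and -0.02. RETN, or resistin, was not tested, since its 3 probes were well above background on 0, 1 and 11 arrays. The probe on 11 arrays was the one just outside the filter, and LEP A_72_P442233 on 18 arrays the one just inside. The PLIN1 probe left out was well above background on 3 arrays.

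Within the HF diet, the line differences of the marker genes were larger than within the LF diet at most lead probes, and the test of that contrast called none. On the HF diet the high RFI line was higher by 0.75 for ADIPOQ, 0.50 for PLIN1, 0.44 for CIDEC, 0.23 for PPARG, 0.53 for CEBPA, 0.41 for FABP4 and 0.46 for LIPE. On the LF diet, the differences were -0.35 for ADIPOQ, -0.26 for PLIN1, -0.27 for CIDEC and -0.09 for PPARG, and 0.19 for CEBPA, 0.23 for FABP4 and 0.16 for LIPE. Only the 2 LIPE probes A_72_P223552 and O11623 passed within the HF diet, with limma adjusted p of 0.040 and 0.043, or 2 of 39 against 6.39% of all probes. With slide as a block, FABP4 A_72_P496561 and A_72_P611338 passed as well. At an unadjusted p under 0.05 there were 18 of 39, among them all 8 FABP4 and 4 of 9 ADIPOQ probes, against 24.2% of all probes. On the LF diet 0 of 39 were called against 2.47%, with 1 at an unadjusted p under 0.05 against 16.5%. The line by diet interaction called no probe of the microarray (0%), with an estimate of 1.10 for ADIPOQ (SE 0.53, unadjusted p = 0.043 and adjusted p = 1.0 in limma). At an unadjusted p under 0.05 it held 4 of the 39 marker probes, 3 of ADIPOQ and 1 of PPARG, against 4.45% of all probes. Both HF calls of LIPE were lost without any 1 of 11 arrays, namely replicates 2, 5, 7, 9 and 10 of high RFI HF and 3, 5, 6, 7, 10 and 12 of low RFI HF. The ADIPOQ estimate was 1.06 without replicates 6 and 10 (unadjusted p = 0.050 in limma).

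**Figure D3:**
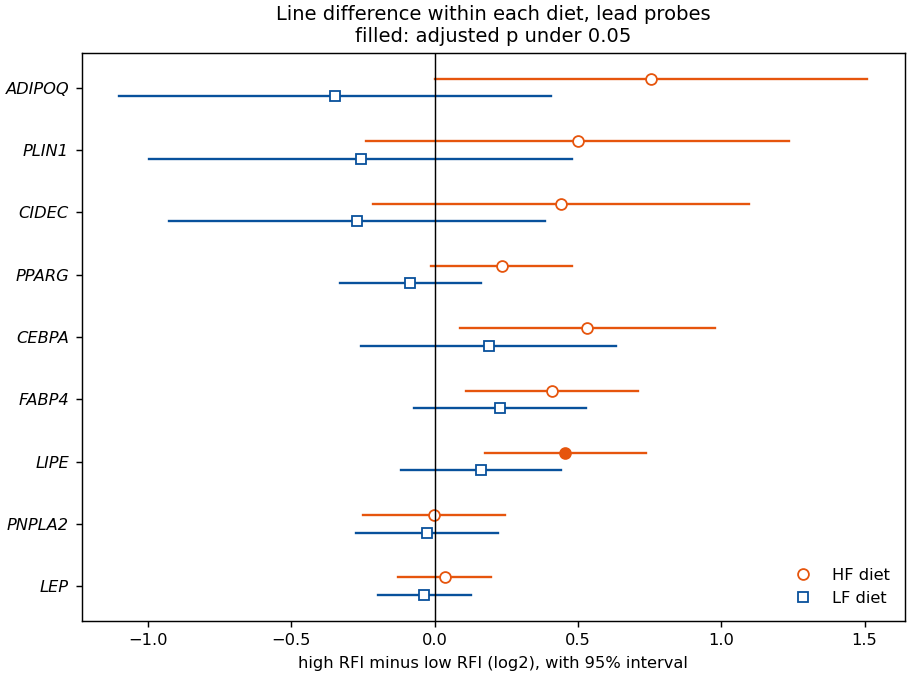
Line difference (high RFI minus low RFI, log2) at the lead probe of each gene on the HF diet (orange circles) and the LF diet (blue squares), with 95% intervals from limma and filled symbols at an adjusted p under 0.05. LIPE on the HF diet is the one filled symbol. ADIPOQ, PLIN1, CIDEC and PPARG lie above 0 on the HF diet and below it on the LF diet with intervals that overlap.

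No marker gene was called between the diets. HF minus LF differences at the lead probes ran from -0.29 for CEBPA (SE 0.16, limma adjusted p = 0.43) to 0.07 for PLIN1. None of the 39 probes was called, against 0.42% of all probes, and 1 had an unadjusted p under 0.05 against 13.1% of all probes. None was called in the low RFI line, against 0.199% of all probes, where 2 had an unadjusted p under 0.05 against 11.6% of all probes. None was called in the high RFI line, against 0% of all probes, where 1 had an unadjusted p under 0.05 against 5.47% of all probes. The estimates had opposite signs in the lines for ADIPOQ, with HF minus LF at -0.58 in the low RFI line (95% interval -1.33 to 0.18) and 0.52 in the high RFI line (95% interval -0.23 to 1.28).

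By group mean, high RFI HF pigs were first in 7 of the 9 genes and low RFI HF pigs last in 7. LEP was among the former, with group means that spanned 0.08. The genes are not independent, since they were read in the same pigs and several co-varied. Without replicates 6 and 10 these counts were 6 and 8, with PPARG then highest in low RFI LF pigs and PNPLA2 lowest in low RFI HF pigs. Of the 27 pairs of neighbours in these orders, 0 differed in limma, with 1 at an unadjusted p under 0.05. Of all 54 pairs of groups, 3 did: low RFI HF against high RFI HF and against high RFI LF for LIPE, and low RFI HF against high RFI LF for CEBPA (-0.65, limma adjusted p = 0.044). In that last contrast 3 of 39 marker probes were called against 12.5% of all probes. For high RFI HF against low RFI LF, 0 of 39 were called against 2.95%, with 9 at an unadjusted p under 0.05 in limma against 17.6% of all probes. CEBPA was highest in high RFI LF pigs at 2.30 ± 0.50 (SD, n = 12) and lowest in low RFI HF pigs at 1.65 ± 0.53 (SD, n = 12).

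The marker genes fell into degrees of co-variation among pigs of the same group. After the 4 group means were removed, all 36 pairs of the 9 lead probes were correlated over the 48 pigs, with permutations of pigs within groups and Benjamini-Hochberg adjustment over the 36 pairs. Of the 36 pairs, 22 passed by r, all positive. The 10 pairs among ADIPOQ, PLIN1, CIDEC, PPARG and CEBPA had r between 0.74 and 0.95. Single groups gave lower values for some pairs. PLIN1 and CEBPA had r = 0.48 in high RFI HF pigs against 0.96 in low RFI LF pigs, and CIDEC and CEBPA 0.57 in high RFI LF pigs. Contrasts between groups were not tested. ADIPOQ and PLIN1 reached r = 0.95 and rho = 0.96 (permutation p = 1e-05, the smallest that 100000 permutations can give, adjusted p = 3.6e-05). Within groups this r ran from 0.92 in high RFI LF pigs to 0.98 in low RFI LF pigs, and it was 0.93 and 0.97 within the scan days. It was 0.95 without the 2 pigs farthest from the median of ADIPOQ.

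FABP4 had lower correlations with these genes, with r = 0.46 and rho = 0.43 against ADIPOQ (permutation p = 0.0018 and 0.0043, adjusted p = 0.0034 and 0.0074). Without the 2 pigs farthest from the median of FABP4, r was 0.36 (permutation p = 0.018), and within scan days it was 0.54 and 0.36. Within groups it was 0.24 in low RFI HF, 0.27 in high RFI HF, 0.76 in low RFI LF and 0.39 in high RFI LF pigs. FABP4 was closest to PPARG, with r = 0.61 and rho = 0.61 (permutation p = 2e-05 and 3e-05, adjusted p = 6.5e-05 and 9.8e-05), 0.56 without the 2 farthest pigs, and 0.74 and 0.52 within scan days. LIPE correlated with ADIPOQ at r = 0.50 and rho = 0.48 (permutation p = 0.00042 and 0.00088, adjusted p = 0.00097 and 0.0021), 0.41 without the 2 farthest pigs and 0.25 and 0.65 within scan days. Within groups the LIPE and ADIPOQ r was 0.79 and 0.78 in low and high RFI pigs on the HF diet and 0.38 and 0.10 on the LF diet, a contrast that was not tested.

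Over all 48 pigs, PNPLA2 varied with LIPE and, by r, with none of the other genes past the threshold. PNPLA2 and LIPE gave r = 0.54 and rho = 0.53 (permutation p = 0.00015 and 0.00036, adjusted p = 0.00039 and 0.00093), 0.56 without the 2 farthest pigs, and 0.69 and 0.47 within scan days. Against FABP4, PNPLA2 had r = 0.27 and rho = 0.33, of which rho passed (permutation p = 0.065 and 0.023, adjusted p = 0.10 and 0.036). Without the 2 pigs farthest from the median of FABP4, this r was 0.40 (permutation p = 0.0059). PNPLA2 and ADIPOQ gave r = -0.03 and rho = 0.01 (permutation p = 0.86 and 0.97, adjusted p = 0.89 and 0.97). Within groups their r was 0.35 in low RFI HF, 0.34 in high RFI HF, 0.08 in low RFI LF and -0.47 in high RFI LF pigs. The contrast between groups was not tested. LEP had no pair past the threshold by r or rho, with r from -0.05 to 0.20. The mean LEP level of the lines was -0.97 and -0.95 on slide 6 and -0.46 and -0.56 on slide 5. When slide means were also removed 25 pairs passed, with LEP at r = 0.42 and rho = 0.39 against PLIN1 (adjusted p = 0.0072 and 0.017), r = 0.40 and rho = 0.36 against CIDEC (adjusted p = 0.011 and 0.030) and r = 0.35 and rho = 0.33 against ADIPOQ (adjusted p = 0.025 and 0.038), by permutation. These 36 correlations share 48 RNA samples and the centring of each array, and with quantile normalization 22 pairs passed again.

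**Figure D4:**
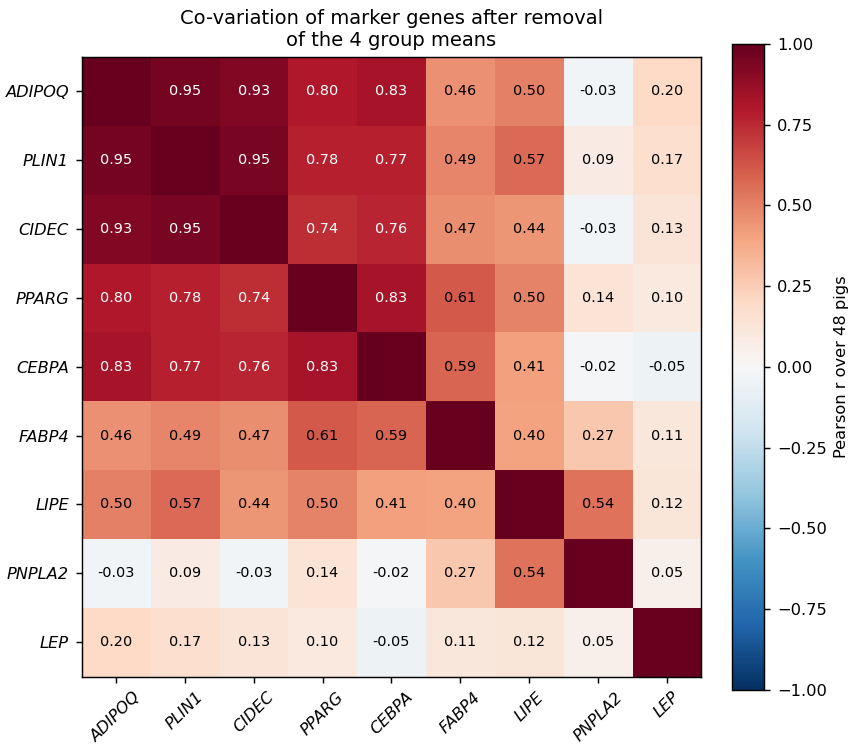
Pearson correlations between the marker genes at their lead probes over 48 pigs, after the mean of each of the 4 groups was removed. Cells carry r on a colour scale from -1 (blue) to 1 (red). ADIPOQ, PLIN1, CIDEC, PPARG and CEBPA form a block between 0.74 and 0.95, FABP4 and LIPE lie lower, and PNPLA2 and LEP are near 0 against most genes.

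**Figure D5:**
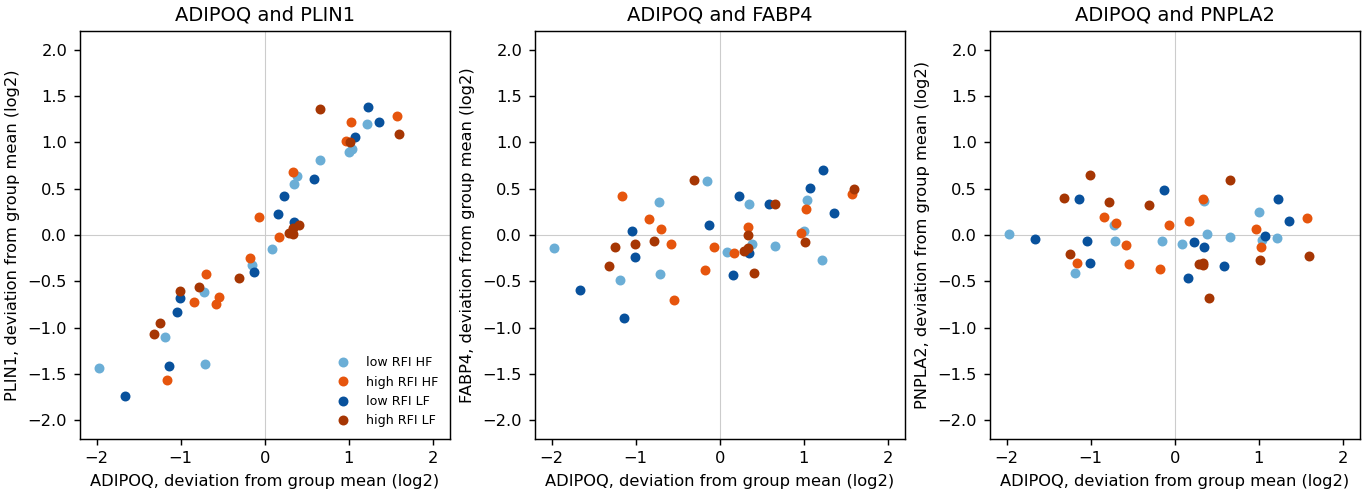
Deviations of each pig from its group mean (log2) for ADIPOQ, on the horizontal axes, against PLIN1, FABP4 and PNPLA2, on the vertical axes, all axes on the same scale. Points are 48 pigs coloured by group. PLIN1 follows ADIPOQ closely (r = 0.95), FABP4 more loosely (r = 0.46), and PNPLA2 shows no trend over all pigs together (r = -0.03).

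As a description over the same 48 pigs, 10104 other annotated genes were ranked by their correlation with ADIPOQ at their lead probes. PLIN1 ranked 1, CIDEC 2, CEBPA 6, PPARG 8, LIPE 31 and FABP4 40, whereas LEP ranked 878 and PNPLA2 4913. The gene outside the markers that lay closest was ALDOC, an aldolase of glycolysis, with correlations of 0.92 with ADIPOQ, 0.93 with PLIN1, 0.93 with CIDEC and 0.85 with CEBPA. Among the tested genes of the 5 lists below, the correlation with ADIPOQ was highest for FASN (0.87), DGAT2 (0.82) and SCD (0.78). It was lowest for GPD1 (-0.37). The nearest genes of FABP4 were ASPH (0.62), PPARG (0.61) and CEBPA (0.59), and those of PPARG were CEBPA (0.83), ADIPOQ (0.80) and PLIN1 (0.78). LIPE lay nearest to FARP2 (0.62), RETSAT (0.59) and SCRN2 (0.59), and PNPLA2 to TBC1D17 (0.78), WDR45 (0.70) and HFE2 (0.69). LEP lay nearest to SEMA6A (0.79), DGKQ (0.73) and QK (0.72). These correlations share arrays, depth of labelling and centring.

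Other genes of adipocyte biology were read from 5 lists, at their lead probes. Of lipid droplet and lipolysis genes, 11 of 20 were tested, with a median line difference of -0.02. ABHD5, the co-activator of PNPLA2, was higher in the high RFI line (0.32, SE 0.06, limma adjusted p = 0.00052), and FITM2 (-0.21) and BSCL2 (-0.17), both of droplet formation, were lower. Of adipogenic transcription genes, 22 of 27 were tested. KLF4 (0.54) and RXRG (0.48) were higher and PPARD (-0.28) and RXRB (-0.24) lower in the high RFI line. Of adipokines and receptors, 13 of 18 were tested. CDH13, a receptor of adiponectin, was higher (0.17), and RBP4 (-0.19), TNF (-0.17) and the adiponectin receptor ADIPOR1 (-0.11) were lower. Not all probes of these genes were called. The calls were 1 of 3 for CDH13, RBP4, TNF, ADIPOR1 and RXRB, and 1 of 2 for FITM2. They were 2 of 3 for BSCL2, PPARD and RXRG, 4 of 9 for KLF4 and 1 of 1 for ABHD5. NRG4 was higher on the HF diet (0.47, limma adjusted p = 0.028), the one diet call of the lists.

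Of fatty acid binding and uptake genes, 14 of 19 were tested. AQP3 (0.47), a channel for glycerol, and ANGPTL4 (0.42), an inhibitor of lipoprotein lipase, stood higher in high RFI pigs, whereas ACSL1 (-0.25), which activates fatty acids, was lower. Of other adipocyte genes, 14 of 21 were tested. ELOVL6 (0.54), a fatty acid elongase, was higher, and TUSC5 (-0.15) and ACSL1, also in this list, were lower. The probes called were 1 of 2 for ELOVL6 and TUSC5, 2 of 4 for ANGPTL4 and ACSL1 and 4 of 4 for AQP3. By probe, the calls between the lines were 5 of 22, 10 of 59, 4 of 35, 8 of 55 and 6 of 49 in the order of the lists, against 16.4% of all probes.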

How the data were processed

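The authors hybridised 48 longissimus muscle RNA samples on a one-colour 60 K microarray and deposited scanner values as intensities, which Agilent Feature Extraction 10.7.3.1 had corrected for background. They also deposited a table of log2 values over 34472 probes, found to be log2 median spot signals from which each array's median was taken away, and it served as an alternative. Here, control and outlier spots were left out, spots of 1 probe were averaged, and each array's log2 processed signals had their mean over the tested probes subtracted. Tested probes were those well above background on at least 12 arrays. The number of arrays limits the precision. For lines and diets, limma 3.58.1 (R 4.3.3) was fitted to the 4 group means, checked on simulated data. Correlations used Python 3.11.15 with numpy 2.4.6, 100000 permutations, and 10000 without the 2 farthest pigs. The pigs are separate animals, and replicate numbers name them only.

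Members, lists and tests were chosen with earlier results of these data known. A lead probe is the tested probe of a gene with the highest mean level. The members, their probes, the 3 genes most correlated with each and up to 4 called genes per list were named, the 4 with the largest difference. ADIPOR1 and the listed genes most and least correlated with ADIPOQ were added after their values were seen. Alternatives changed the scaling, background, filter, outlier spots, slide, table, variance prior, test and unit. Fits without replicates 6 and 10 of the high RFI HF group, without each array in turn, or with ADIPOQ as a covariate were added after the data were seen. Probe positions in transcripts were not established, and the genome build of the microarray was not given in the sources used here. Of 60305 probes, 26955 had a gene symbol.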

Additional observations from a re-analysis of the deposited data

How the results depend on the processing

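The count of marker probes called between the lines, 10 of 39, stayed between 9 and 12 under other scalings, background correction, outlier spots kept, a block for slide, the values the authors deposited, another variance prior, ADIPOQ as a covariate, the variance analysis and the filter on all 48 arrays. With slide as a block, 1 of the 12, LIPE A_72_P551986, was lower in the high RFI line. It was 3 without a filter on dim probes, where 6.42% of all probes were called. It was also 3 without the 2 arrays that stood apart, where 14.3% of all probes were called, against 16.4% in the main setting. With the probes of a gene averaged, 1 of 9 genes was called. Leaving out each array in turn gave 6 to 11. On the HF diet, the count of 2 was 0 without a filter, with averaged probes or with ADIPOQ as a covariate, 4 with slide as a block, where 2 FABP4 probes were added, 3 with the filter on all 48 arrays and 1 with the deposited table, and 0 to 10 when each array was left out. Of the pairwise group tests, 3 in the main setting, 1 passed with scaling to the 75th percentile or quantile normalization, and 0 without a filter. The counts for the LF diet, for the diets and for the interaction were 0 in every alternative run and without each array in turn. The calls lost without a filter came with 60305 probes tested. For the other changes, the cause was not tested. Correlated pairs numbered 22 to 25 of 36.

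Uncalled differences near 0 changed sign at lead probes. The line difference of LEP became 0.0064 with scaling to the 75th percentile, 0.016 with normexp background, 0.0047 without a filter and 0.012 with the filter on all 48 arrays. That of PNPLA2 became 0.015 with quantile normalization and 0.0087 with normexp. With ADIPOQ as a covariate, PLIN1 gave -0.070, CIDEC -0.079 and CEBPA 0.26, now called. The mean of the other probes gave -0.034 for CEBPA. For the diets, the mean of the other probes gave 0.0072 for PPARG and 0.046 for CEBPA, and CIDEC gave -0.0090 without the 2 arrays. No paired analysis was possible because each pig is a separate animal, and the numbers in the labels do not link pigs of different groups.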
